A study of Homo sapiens with 12 samples.

Results

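The change of medium from 10% fetal bovine serum (FBS) to 0% FBS was examined in Calu-6 cells that carried a control siRNA, on the 6 siControl arrays of the 12 arrays in the series. Arrays were chosen by siRNA alone, with 3 siControl arrays at 0% FBS and 3 at 10% FBS, and every one of the 19460 features that carry exactly 1 gene symbol was described, out of 33252 features in the table. Calu-6 is an established human lung cancer cell line. The study asked how knockdown of LAPTM4B, a lysosomal membrane protein, alters the transcriptome of these cells with and without serum, and the siControl arrays hold the response to serum loss without that knockdown. All cells, the controls included, were transfected with an siRNA from Dharmacon by means of Lipofectamine RNAiMAX, and untransfected cells are not part of the comparison. In the siControl groups the siRNA was a scrambled sequence. On the day after transfection the cells were washed and given DMEM/F12 with either 10% FBS or 0% FBS. RNA was isolated 48 h later, at 72 h after transfection, and was read on the Affymetrix Human Gene 1.0 ST array. The labels call the 3 samples of each group biological replicates and do not say on which days they were grown, so p-values measure the spread between these samples.

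Serum supplies cultured cells with growth factors, lipoprotein cholesterol, fatty acids bound to albumin, retinol, and members of the BMP family. Growth factors act through receptor tyrosine kinases on the ERK and AKT pathways, and AKT keeps FOXO transcription factors out of the nucleus. When membrane cholesterol falls, the SREBP2 transcription factor is released from the endoplasmic reticulum by its escort SCAP and switches on the enzymes of cholesterol synthesis, whereas oxysterols activate LXR and with it the cholesterol exporters.

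About as many features were called higher as lower after serum withdrawal, whereas more of the larger changes were rises. The quantile normalisation within RMA hides a shift of all genes, so the balance of the counts may in part be set by it. Expression values are RMA log2 signals, so a difference of 1 is a doubling, and each log2 fold change is the mean at 0% FBS minus that at 10% FBS. By limma with Benjamini-Hochberg adjustment over the 19460 features, 5064 features (26.0%) passed an adjusted p of 0.05. Of these, 2562 (13.2% of those tested) were higher and 2502 (12.9%) were lower at 0% FBS. Most changes were small: the median size among the called features was 0.26 on the log2 scale, 117 were higher and 61 lower by more than 1, and 15 were higher and 4 lower by more than 2. The 3 arrays of a medium did not overlap with the 3 of the other for 8003 features (41.1%). Among the 5064 called features this held for 5057, so a lack of overlap adds little to the call of a gene. For any single gene an exact permutation test of 3 arrays against 3 cannot go below a two-sided p of 0.1. Each array read RNA pooled from a whole culture, in which fewer cells carrying a transcript and less of the transcript per cell cannot be told apart.

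**Figure D1:**
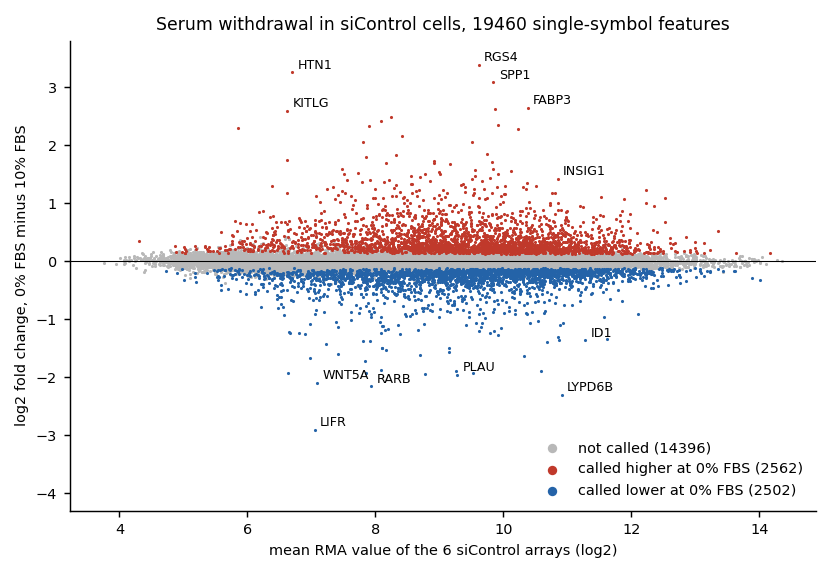
Each point is 1 feature; the x axis is its mean RMA value over the 6 siControl arrays (log2) and the y axis its log2 fold change, 0% FBS minus 10% FBS. The 2562 features called higher (red) reach 3.39 at RGS4, and the 2502 called lower (blue) reach -2.91 at LIFR, while most called features lie within 1 of the zero line.

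Pearson correlations between arrays of the same siControl group lay between 0.9978 and 0.9988 over these features. Such correlations reflect in large part the level differences between genes, so they cannot show whether 1 array stood apart. LAPTM4B itself, the gene targeted in the other arrays of the series, read 11.94, 11.87 and 11.93 without serum and 11.76, 11.75 and 11.80 with it, so the highest siControl values were those at 0% FBS, and the difference of 0.15 (SE 0.041) was called (adjusted p = 0.03). That call was lost on leaving out each of 5 of the 6 arrays in turn, 0% FBS replicate 2 being the exception, with adjusted p-values of up to 0.106. Its means in the siLAPTM4B arrays were 10.49 at 0% FBS and 10.01 at 10% FBS. Of the epithelial markers, KRT8 had a mean of 12.78 and KRT18 of 12.21 at 0% FBS, whereas CDH1, which encodes E-cadherin, had means of 6.17 and 6.23, below the lower quartile of every array. Of the 6 epithelial markers, EPCAM was called higher and KRT7 lower, both described further on, and the mean over the 6 lay between 9.70 and 9.74 at 0% FBS and between 9.76 and 9.82 at 10% FBS. The 5 lung epithelium markers stood low, with array means between 7.0 and 7.2, and the lung lineage factor NKX2-1 had means of 6.95 and 7.02, near the lower quartile of the arrays (6.83 to 6.91). Among markers of cells that a pure culture should lack, 5 of 11 leukocyte genes and 4 of 5 endothelial genes had means below the lower quartile in both media. The mean log2 level of the 11 leukocyte genes lay between 7.34 and 7.40 at 0% FBS and between 7.30 and 7.39 at 10% FBS, and the pan-leukocyte gene PTPRC had means of 5.27 and 5.24. Of these 11, 3 were called higher, led by the lysozyme gene LYZ (0.65), and 2 lower, led by the lysosomal glycoprotein gene CD68 (-0.52), and their part in the results was not tested.

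The gene that rose most was RGS4, which encodes a GTPase-activating protein that shortens signalling from G-protein-coupled receptors. Its values were 11.40, 11.25 and 11.27 in the 0% FBS arrays and 7.83, 7.86 and 8.05 in the 10% FBS arrays. The groups stood far apart, with a log2 fold change of 3.39 (SE 0.069, adjusted p = 8.7e-08), or 10.5-fold. SPP1, encoding the secreted phosphoprotein osteopontin, read 11.47, 11.27 and 11.41 at 0% FBS and 8.29, 8.19 and 8.43 at 10% FBS, and its difference was 3.08 (SE 0.073, adjusted p = 1.7e-07). FABP3, a carrier of fatty acids in the cytoplasm, read 11.68, 11.68 and 11.75 without serum and 9.05, 9.04 and 9.09 with it, or 6.24-fold higher without serum. In both genes every 0% FBS array was above every 10% FBS array, which the choice of the 15 largest changes required. CHRNA1, the alpha subunit of the muscle acetylcholine receptor, read 11.25, 11.10 and 11.18 in the 0% FBS arrays and 8.54, 8.51 and 8.59 in the 10% FBS arrays, a difference of 2.63 (SE 0.051). KITLG encodes stem cell factor, the ligand of the KIT receptor. It read 7.84, 7.89 and 8.01 at 0% FBS and 5.23, 5.35 and 5.40 at 10% FBS, and its 10% FBS values lay below the lower quartile of the arrays, so its 6.01-fold difference starts from a dim signal. The same holds for HTN1, a salivary peptide gene, with 7.97, 8.57 and 8.43 without serum and 5.00, 5.03 and 5.18 with it. HTN1 has a close paralog, HTN3, and the probes may not tell them apart. The other 9 of the 15 largest increases were SERPINI1 (2.48), HDAC9 (2.41), NDRG1 (2.35), VLDLR (2.34), CD24 (2.29), TFF3 (2.28), TMEM154 (2.16), DCHS2 (2.05) and ACSL1 (2.05), all log2 fold changes. VLDLR encodes a lipoprotein receptor and ACSL1 an enzyme that activates long-chain fatty acids, while HDAC9 is a class II histone deacetylase.

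LIFR, the receptor subunit for leukaemia inhibitory factor, fell most. Its values were 5.49, 5.60 and 5.69 in the 0% FBS arrays and 8.43, 8.44 and 8.64 in the 10% FBS arrays, and the 0% FBS level was 13.3% of that at 10% FBS (log2 fold change -2.91, SE 0.074, adjusted p = 1.9e-07). The 3 values without serum were below the lower quartile of the arrays, so whether the transcript was still detected was not tested. LYPD6B, a Ly6-family surface protein gene, was among the brighter signals and read 9.78, 9.79 and 9.71 at 0% FBS and 12.06, 12.05 and 12.07 at 10% FBS, a difference of -2.30 (SE 0.041). WNT5A, a ligand of non-canonical Wnt signalling, read 6.01, 6.18 and 5.95 without serum and 8.12, 8.11 and 8.19 with it, with its 0% FBS values again below the lower quartile. For both genes the groups did not overlap, which the choice of the 15 largest changes required. PLAU, the urokinase-type plasminogen activator, read 8.23, 8.28 and 8.38 in the 0% FBS arrays and 10.26, 10.25 and 10.25 in the 10% FBS arrays, or 25.7% of its level with serum. TNFSF10, which encodes the death ligand TRAIL, read 5.77, 5.55 and 5.69 at 0% FBS and 7.54, 7.52 and 7.77 at 10% FBS, and its 0% FBS values were dim. RARB and DHRS3, both of the retinoid pathway, are described with that group. The remaining members of the 15 largest decreases were EVI2B (-1.93), SEMA6A (-1.92), PLAC8 (-1.89), GATA2 (-1.89), LUM (-1.87), ADGRG6 (-1.72), ABCG2 (-1.67) and KRT7 (-1.63), again as log2 fold changes. GATA2 is a zinc finger transcription factor, LUM encodes the matrix proteoglycan lumican, ABCG2 a drug efflux pump and KRT7 a simple-epithelium keratin.

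**Figure D2:**
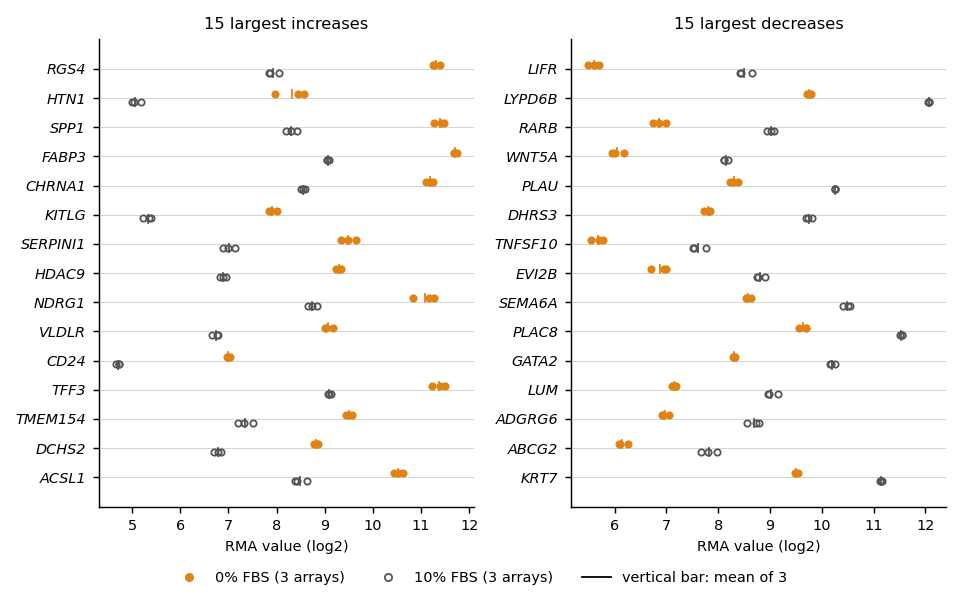
RMA values (log2, x axis) of the 15 genes with the largest increases (left) and decreases (right) in each of the 3 siControl arrays at 0% FBS (filled) and the 3 at 10% FBS (open), with vertical bars at the means. The 30 genes were picked among called features whose media do not overlap, so the gap between media in each was set by that choice. The fall of LIFR runs from near 8.5 to near 5.6 and the rise of RGS4 from near 7.9 to near 11.3.

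Genes of 36 lists were then counted, using 1 feature per gene. Among all 18417 genes, 2480 were called higher and 2386 lower, which is close to the 13.2% and 12.9% of features, the median log2 fold change was -0.01, and each list is read beside those shares. The lists hold 1068 distinct measured genes.

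Genes of cholesterol synthesis rose together. Of 27 listed genes of cholesterol synthesis and uptake 21 were measured here, of which 18 were called higher (85.7%) and 0 lower, with a median log2 fold change of 0.51. INSIG1, whose protein holds SCAP in the endoplasmic reticulum and which is itself a target of SREBP2, read 11.61, 11.49 and 11.57 without serum and 10.13, 10.11 and 10.18 with it, a 2.67-fold difference (log2 1.42, SE 0.045, adjusted p = 4.7e-07). STARD4, a carrier of cholesterol between membranes, read 10.60, 10.59 and 10.56 in the 0% FBS arrays and 9.35, 9.47 and 9.48 in the 10% FBS arrays. HMGCS1, the synthase that makes HMG-CoA at the head of the pathway, read 12.41, 12.43 and 12.43 at 0% FBS and 11.29, 11.35 and 11.43 at 10% FBS, or 2.09-fold higher without serum. In these genes every array without serum lay above every array with it. LSS, which closes the ring of squalene epoxide into lanosterol, read 11.07, 11.06 and 11.06 without serum and 10.16, 10.21 and 10.17 with it, a difference of 0.89 (SE 0.038). The later demethylation enzyme MSMO1 (0.78), the farnesyl pyrophosphate synthase FDPS (0.71), the squalene epoxidase SQLE (0.70), the lanosterol demethylase CYP51A1 (0.70) and the SREBP2 gene SREBF2 (0.39) also rose, as log2 fold changes. Of the 3 members without a call, the escort SCAP read -0.13 (adjusted p = 0.051) and passed in 5 of 15 alternatives, with a lowest adjusted p of 0.0098.

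Promoter stretches of 4 of these genes are shown because the CCAAT box, the site of the NF-Y factor that works beside SREBP, was common in this list. RefSeq promoters (GRCh38.p14) were searched on both strands from 250 bases before to 50 bases after the first listed start of a gene, with CCAAT for this box and TCACCCCAC, TCACGCCAC and TCACCCCAT for the sterol response element. A CCAAT box lay in 15 of 19 promoters of the list (78.9%) and in 35.7% of all 27305 promoters, and a sterol response element of these letters in 1 of 19 (5.26%), that of SREBF2, and in 0.791% of all. Capitals mark the boxes, which read ATTGG where they lie on the other strand, and in SREBF2 also the sterol response element; the letters of these motifs do not overlap. Each stretch is 100 bases, printed 5′ to 3′ in the direction of transcription and lying before the start: HMGCS1 at chr5:43313483-43313582 (minus strand), INSIG1 at chr7:155297688-155297787 (plus), LSS at chr21:46228865-46228964 (minus) and SREBF2 at chr22:41832955-41833054 (plus).
HMGCS1: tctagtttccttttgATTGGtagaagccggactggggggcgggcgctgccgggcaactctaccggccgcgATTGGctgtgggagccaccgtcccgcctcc
INSIG1: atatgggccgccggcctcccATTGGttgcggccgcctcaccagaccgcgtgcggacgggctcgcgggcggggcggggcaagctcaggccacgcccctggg
LSS: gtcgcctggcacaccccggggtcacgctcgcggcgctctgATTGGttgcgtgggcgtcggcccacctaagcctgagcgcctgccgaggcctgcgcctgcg
SREBF2: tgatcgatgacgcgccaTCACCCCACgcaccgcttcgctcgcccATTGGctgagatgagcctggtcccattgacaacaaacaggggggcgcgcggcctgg
A match is a description of letters in the window and was not tested against expression.

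Cholesterol exporters rose beside the synthesis enzymes. In the list of cholesterol efflux and LXR targets, 6 of 9 measured genes were called higher and 0 lower (median 0.31). ABCG1 and ABCA1 encode transporters that pass cholesterol to lipoproteins. ABCG1 read 9.55, 9.48 and 9.54 in the 0% FBS arrays and 8.06, 7.91 and 8.12 in the 10% FBS arrays, a 2.82-fold difference, and ABCA1 read 10.34, 10.32 and 10.40 at 0% FBS and 8.91, 8.98 and 9.03 at 10% FBS, a 2.6-fold difference (adjusted p = 6.1e-07). MYLIP, which marks lipoprotein receptors for degradation, rose by 0.39 on the log2 scale. The LXR gene NR1H3 read -0.03 without a call.

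Genes of both the making and the use of fatty acids were among those that rose. Of 25 measured genes of fatty acid synthesis and desaturation, 15 were called higher (60%) and 4 lower, with a median of 0.32. FADS2, the delta-6 desaturase, read 12.83, 12.86 and 12.87 without serum and 11.60, 11.63 and 11.64 with it, a difference of 1.23 (SE 0.038, adjusted p = 4.5e-07). FASN, the fatty acid synthase, read 12.20, 12.23 and 12.24 in the 0% FBS arrays and 11.43, 11.44 and 11.39 in the 10% FBS arrays, or 1.75-fold higher, and the arrays of the media did not overlap in either gene. The acyl-CoA synthetase ACSL1 read 10.63, 10.52 and 10.43 at 0% FBS and 8.43, 8.38 and 8.63 at 10% FBS. Smaller rises came from the acetyl-CoA synthetase ACSS2 (0.96), the lipin LPIN1 (0.67), the stearoyl-CoA desaturase SCD (0.52) and SREBF1 (0.42), which encodes SREBP1. Those that fell included ACSL5 (-0.36), whose call was lost by the methods' t-test (adjusted p = 0.055), the glycerol acyltransferase GPAM (-0.36) and the mitochondrial acetyl-CoA carboxylase ACACB (-0.24).

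In the list of fatty acid use and lipid droplets, 10 of 29 were called higher (34.5%) and 4 lower, and the median of 0.04 was near that of all genes. FABP3, described above, belongs to this list, and PDK4, ANGPTL4, CD36 and PLIN2 are known targets of PPAR nuclear receptors. PDK4, a kinase that shuts pyruvate dehydrogenase when fat is burned, read 10.95, 10.80 and 10.94 without serum and 9.26, 9.37 and 9.37 with it, a 2.95-fold difference (adjusted p = 8.1e-07). ANGPTL4, a secreted inhibitor of lipoprotein lipase, read 10.40, 10.51 and 10.64 in the 0% FBS arrays and 9.15, 9.05 and 9.04 in the 10% FBS arrays, or 2.7-fold higher. CD36, a fatty acid receptor, read 7.17, 7.14 and 7.31 at 0% FBS and 5.98, 5.92 and 6.21 at 10% FBS, with dim values at 10% FBS. All 3 genes kept the media apart. The droplet coat protein PLIN2 rose by 0.86, whereas the carnitine palmitoyltransferase CPT2 (-0.40), the triglyceride lipase PNPLA2 (-0.25) and PPARG itself (-0.24) fell, all on the log2 scale.

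**Figure D3:**
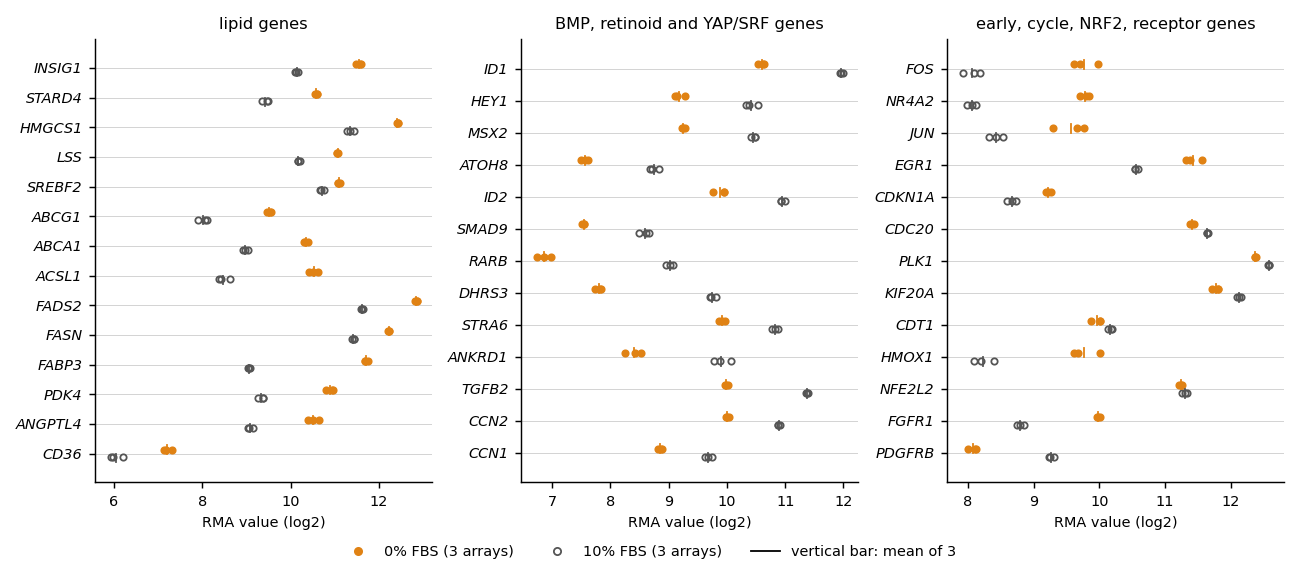
RMA values (log2, x axis) of lipid genes (left), of BMP, retinoid and YAP or SRF genes (middle) and of early, cell cycle, NRF2 and receptor genes (right) in the 3 siControl arrays at 0% FBS (filled) and the 3 at 10% FBS (open), with vertical bars at the means. The lipid genes shown lie to the right at 0% FBS and the middle group to the left, while CDC20, PLK1 and CDT1 move by 0.24 or less and the NFE2L2 arrays overlap.

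Loss of serum was accompanied by lower levels of BMP response genes. Of 20 measured genes of the BMP response and ID group, 11 were called lower (55.0%) and 3 higher, with a median of -0.36. ID1, an inhibitor of basic helix-loop-helix factors and a direct target of BMP-activated SMADs, read 10.63, 10.62 and 10.54 without serum and 11.99, 11.96 and 11.94 with it, or 38.8% of its level with serum (log2 fold change -1.37, SE 0.043, adjusted p = 4.6e-07). The homeobox gene MSX2 read 9.28, 9.22 and 9.24 in the 0% FBS arrays and 10.41, 10.48 and 10.47 in the 10% FBS arrays, a difference of -1.21 (SE 0.042). HEY1, a repressor downstream of Notch and BMP, read 9.11, 9.27 and 9.13 at 0% FBS and 10.33, 10.38 and 10.53 at 10% FBS, a difference of -1.24 (SE 0.066). In these genes the arrays without serum were all lower. ID2 (-1.07), ATOH8 (-1.19), SMAD9 (-1.05), the BMP pseudoreceptor BAMBI (-0.83) and the inhibitory SMAD7 (-0.61) and SMAD6 (-0.40) also fell. The ligand BMP2 rose by 0.58, the receptor BMPR1B by 0.33, a call lost by the methods' t-test (adjusted p = 0.073), and the extracellular antagonist NOG by 0.28, and the receptor BMPR2 read -0.04 with no call, all on the log2 scale.

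Genes read by SRF with MRTF and by YAP with TEAD were more often called lower than higher. In that list 13 of 30 were called lower (43.3%) and 4 higher, with a median of -0.13. ANKRD1, a nuclear ankyrin-repeat protein, read 8.24, 8.53 and 8.43 without serum and 9.77, 9.88 and 10.07 with it, or 35.2% of its level with serum. TGFB2, a ligand of the TGF-beta receptors, read 9.98, 10.01 and 9.96 in the 0% FBS arrays and 11.35, 11.39 and 11.38 in the 10% FBS arrays, a difference of -1.39 (SE 0.039, adjusted p = 2.9e-07). The matricellular genes CCN2 and CCN1 are widely used as readouts of YAP. CCN2 read 10.04, 10.00 and 9.98 at 0% FBS and 10.92, 10.87 and 10.87 at 10% FBS, and CCN1 read 8.89, 8.87 and 8.82 without serum and 9.62, 9.67 and 9.74 with it. None of these arrays overlapped between media. FHL2 fell by 0.72 and the receptor kinase AXL by 0.44, while the enteric actin ACTG2 rose by 0.76 on the log2 scale. Of 22 TGF-beta response genes, 8 were called lower (36.4%), among them SNAI2 (-0.62) and THBS1 (-0.47). SMAD6 and SMAD7, which fell, belong both to this list and to that of the BMP response. Another 5 were called higher, among them the lysyl oxidase LOX (0.61) and the receptor TGFBR2 (0.50), and the median was -0.08.

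Retinoid targets included some of the deepest falls. RARB encodes retinoic acid receptor beta, whose own promoter is a classic target of retinoic acid. It read 6.85, 6.98 and 6.73 in the 0% FBS arrays and 9.01, 8.95 and 9.08 in the 10% FBS arrays, or 22.4% of its level with serum (log2 fold change -2.16, SE 0.069, adjusted p = 4.7e-07). DHRS3, a reductase that turns retinal back to retinol, read 7.84, 7.82 and 7.73 at 0% FBS and 9.73, 9.70 and 9.80 at 10% FBS, a difference of -1.95 (SE 0.048). STRA6, the retinol importer, read 9.86, 9.92 and 9.96 without serum and 10.82, 10.87 and 10.78 with it. The arrays of the media were separate in each of these genes. The transglutaminase TGM2 (-0.90) and the receptor RARG (-0.60) fell too. Of 18 measured members of the list, 6 were called lower (33.3%) and 2 higher, led by RXRA (0.24), with a median of -0.09. The retinoic acid hydroxylase CYP26A1, also a known target, read -0.09 without a call (adjusted p = 0.25).

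The promoter of RARB is shown for its direct repeat, to which retinoid receptors are known to bind. The letters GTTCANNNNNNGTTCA, searched on both strands and chosen after the values were seen, were found in 1 of 16 promoters of the list (6.25%), that of RARB, and in 0.0623% of all 27305. With RARB as the only match, these shares describe its promoter and not the list as a set. The match was not tested against expression. Capitals mark the repeat in the 80 bases before the start, at chr3:25428183-25428262 on the plus strand of GRCh38.p14.
RARB: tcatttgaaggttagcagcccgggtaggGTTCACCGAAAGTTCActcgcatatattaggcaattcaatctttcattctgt

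Immediate early genes, which serum is known to induce within minutes when it is added back to resting cells, stood higher after 48 h without it. Of 26 measured genes, 16 were called higher (61.5%) and 1 lower (2 with the replicate number as a block), with a median of 0.30. NR4A2, an orphan nuclear receptor, read 9.80, 9.70 and 9.85 in the 0% FBS arrays and 8.06, 7.98 and 8.12 in the 10% FBS arrays, a 3.31-fold difference (adjusted p = 4.7e-07). FOS read 9.70, 9.61 and 9.97 at 0% FBS and 7.92, 8.10 and 8.18 at 10% FBS, a difference of 1.70 (SE 0.10). JUN, its partner in AP-1, read 9.66, 9.29 and 9.77 without serum and 8.32, 8.42 and 8.53 with it, with replicate 2 at 0% FBS nearest to the serum arrays. The zinc finger factor EGR1 read 11.39, 11.32 and 11.57 in the 0% FBS arrays and 10.55, 10.59 and 10.54 in the 10% FBS arrays, or 1.82-fold higher without serum. In none of these genes did the groups overlap. ZFP36 (0.88) and NR4A1 (0.84) rose as well, FOSL1 was the 1 member called lower (-0.24), and SRF, whose protein drives many of these genes, read -0.05 without a call. The CArG box, the site of SRF, was found in 2 of 19 promoters of the list (10.5%) and in 1.29% of all, and these matches were not tested against expression. The 80 bases of EGR1 at chr5:138465359-138465438 (plus strand, GRCh38.p14, ending 41 bases before the start) are shown because they hold 2 CArG boxes, in capitals.
EGR1: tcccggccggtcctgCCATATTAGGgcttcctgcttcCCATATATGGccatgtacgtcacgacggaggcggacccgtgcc

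Readouts of MEK and ERK were mixed in direction. Of 23 measured genes, 13 were called higher (56.5%) and 6 lower (26.1%), with a median of 0.15. The ERK phosphatase DUSP5 read 10.52, 10.44 and 10.54 at 0% FBS and 9.72, 9.72 and 9.79 at 10% FBS, and DUSP4 (0.64), DUSP6 (0.45), SPRY2 (0.55) and the ephrin receptor EPHA4 (1.01) also rose. Those called lower were led by IL1RAP (-0.43), FOSL1 and SPRY4 (-0.24), and without 10% FBS replicate 2, 3 members were called lower. The cyclin CCND1 read -0.12 with no call (adjusted p = 0.08).

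Cell cycle genes moved little. Of 49 measured mitosis genes, 12 were called lower (24.5%) and 2 higher (4.08%), with a median of -0.09 and a range from -0.36 to 0.34. Without 10% FBS replicate 2, 7 were called lower. CDC20, an activator of the anaphase-promoting complex, read 11.41, 11.38 and 11.44 without serum and 11.65, 11.64 and 11.64 with it, so the level without serum was 84.9% of that with it (adjusted p = 0.0025). KIF20A, a kinesin of the cleavage furrow, read 11.72, 11.81 and 11.81 in the 0% FBS arrays and 12.12, 12.09 and 12.15 in the 10% FBS arrays, and the mitotic kinase PLK1 read 12.37, 12.37 and 12.39 at 0% FBS and 12.57, 12.58 and 12.58 at 10% FBS. These groups did not overlap, although the differences were -0.24, -0.34 and -0.20. CCNB1, the main mitotic cyclin, was not called (-0.14, adjusted p = 0.054, and 0.0495 with the replicate number as a block), and BUB1B (0.34) led the 2 that rose. Of 43 measured genes of DNA replication, 11 were called lower (25.6%) and 2 higher (4.65%), with a median of -0.04, and leaving out any 1 array left 4 to 7 called lower. The largest falls were GINS4 (-0.32) and the helicase subunit MCM5 (-0.31), and CDT1, which loads that helicase, fell by 0.20, a call lost without 10% FBS replicate 2 (adjusted p = 0.0671) or 3 (0.0645). The CDK inhibitor CDKN1A read 9.22, 9.18 and 9.26 without serum and 8.73, 8.60 and 8.66 with it, a 1.47-fold rise, and CCNG2 rose by 0.52 on the log2 scale. In the list of G1 cyclins, CDKs, CDK inhibitors, RB and E2F 8 of 31 were called higher and 3 lower, led by E2F4 (-0.27), and 4 or 5 were called higher without 0% FBS replicate 2 or 3 or any 1 array at 10% FBS. Replication-dependent histones, whose probes may not tell close paralogs apart, had 6 of 42 lower and 1 higher. Leaving out 0% FBS replicate 1 or 10% FBS replicate 2 or 3 left 2 or 3 histones called lower, and the replicate block gave 13 lower and 2 higher. Of 28 genes of MYC and ribosome biogenesis, 4 were called higher (14.3%), led by the MAX partner MXD1 (0.81) and with MYC at 0.24, and 5 lower (17.9%). The share called higher was near the 13.5% of all genes. The 5 called lower became 1 or 2 on leaving out any 1 array other than 10% FBS replicate 1.

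Promoters of many cell cycle genes are known to carry motifs of the complexes that repress them in resting cells. The CHR motif of the DREAM complex, searched as TTTGAA and TTCGAA, lay in 32 of 43 promoters of the mitosis list (74.4%) and in 16.6% of all, and a CCAAT box in 31 of 43 (72.1%). E2F sites, searched as TTTCCCGC, TTTGGCGC, TTTCGCGC and TTTGGCGG, lay in 21 of 37 promoters of the DNA replication list (56.8%) and in 3.43% of all. CDC20 (chr1:43358871-43358950, ending 31 bases before the start), PLK1 (chr16:23678809-23678888) and CDT1 (chr16:88803729-88803788), all on the plus strand of GRCh38.p14, are shown as examples among the genes that fell. Capitals mark CHR and CCAAT in CDC20 and PLK1 and the 2 adjoining E2F sites in CDT1. The shares cover promoters of the whole lists, in which 35 of 49 mitosis and 30 of 43 replication genes were not called. A match describes letters in the window and was not tested against expression.
CDC20: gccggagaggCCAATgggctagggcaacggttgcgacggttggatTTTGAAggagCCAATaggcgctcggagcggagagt
PLK1: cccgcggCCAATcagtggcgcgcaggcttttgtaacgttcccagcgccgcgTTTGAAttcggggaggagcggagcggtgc
CDT1: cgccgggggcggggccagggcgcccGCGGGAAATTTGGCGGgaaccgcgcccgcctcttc

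Many receptors and ligands of growth factor signalling were called higher. Of 39 measured receptor tyrosine kinases, IGF axis members and ligands, 18 were called higher (46.2%) and 5 lower (12.8%), with a median of 0.05. FGFR1 read 9.97, 9.98 and 10.01 in the 0% FBS arrays and 8.79, 8.75 and 8.85 in the 10% FBS arrays, a 2.28-fold difference. The ligand gene FGF7 read 7.65, 7.96 and 7.99 at 0% FBS and 6.53, 6.55 and 6.80 at 10% FBS, with dim values at 10% FBS. VEGFA, the endothelial growth factor, read 9.70, 9.63 and 9.65 without serum and 8.53, 8.32 and 8.47 with it, or 2.33-fold higher without serum. The arrays of the media were separate in all 3 genes. IGFBP2 (1.17) and the ligand PDGFA (0.88) rose, while PDGFRB, the receptor that PDGF-BB in serum activates, read 8.0, 8.11 and 8.12 in the 0% FBS arrays and 9.31, 9.24 and 9.25 in the 10% FBS arrays, or 43.9% of its level with serum. FGFR3 fell by 0.57, and ERBB2 read 0.05 without a call.

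FOXO targets and starvation genes were called higher in 13 of 33 cases (39.4%) and lower in 4 (12.1%), with a median of 0.13. TP53INP1, which takes part in autophagy and cell death, read 8.52, 8.59 and 8.48 at 0% FBS and 7.31, 7.52 and 7.52 at 10% FBS, a 2.11-fold difference (adjusted p = 1.1e-05). TRIB1 (0.87), KLHL24 (0.81) and the ubiquitin ligase FBXO32 (0.72) rose. IRS1, the adaptor of the insulin and IGF1 receptors, read 9.66, 9.71 and 9.70 without serum and 10.53, 10.47 and 10.46 with it, or 57.7% of its level with serum. FOXO1, one of the factors themselves, fell by 0.21.

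HMOX1 rose while no change of NFE2L2, the gene of its activator NRF2, was called. HMOX1, the inducible haem oxygenase, read 9.68, 9.62 and 10.01 in the 0% FBS arrays and 8.40, 8.19 and 8.10 in the 10% FBS arrays, a 2.91-fold difference (log2 1.54, SE 0.11, adjusted p = 3.1e-05). All 3 arrays without serum were above all 3 with serum, and they had an SD of 0.21 (n = 3). NFE2L2 read 11.22, 11.25 and 11.26 at 0% FBS and 11.26, 11.33 and 11.31 at 10% FBS, and these arrays overlapped (log2 fold change -0.06, adjusted p = 0.35). Of 47 measured NRF2 targets, 15 were called higher (31.9%) and 9 lower (19.1%), with a median of 0.07. MAFG, the small MAF partner, rose by 0.70, the malic enzyme ME1 by 0.57 and the glutathione ligase subunit GCLC by 0.48 on the log2 scale. The quinone reductase NQO1 (-0.05) and the thioredoxin reductase TXNRD1 (0.05) had no call. The members that fell included efflux pumps and metabolic enzymes, with ABCG2 at -1.67, ABCC2 at -0.83, the biliverdin reductase BLVRA at -0.82 and AKR1C3 at -1.54. AKR1C3 read 7.44, 7.34 and 7.41 without serum and 8.92, 8.93 and 8.95 with it, and its probes may share sequence with AKR1C1 and AKR1C2.

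Most autophagy and lysosome genes were not called, although 38.9% of the autophagy and 46.5% of the lysosome genes were, beside 26.4% of all genes. Of 36 autophagy genes, 12 were called higher (33.3%) and 2 lower (5.56%), with a median of 0.09, and 6 or 7 were higher without 0% FBS replicate 2 or 3 or 10% FBS replicate 1 or 2, with 0 lower without 0% FBS replicate 2 or 3. GABARAPL1, an ATG8-family protein of the autophagosome membrane, read 10.42, 10.42 and 10.54 in the 0% FBS arrays and 9.62, 9.64 and 9.73 in the 10% FBS arrays, or 1.73-fold higher, and the receptor OPTN (0.51) and SQSTM1 (0.27) rose. ULK1, the starting kinase, read 0.08 without a call. Of 43 measured lysosome genes, 12 were called higher (27.9%) and 8 lower (18.6%), and without 0% FBS replicate 1 or 10% FBS replicate 1 or 2, 6 or 7 were higher. NPC1, which exports cholesterol from lysosomes, read 11.45, 11.27 and 11.32 at 0% FBS and 10.67, 10.67 and 10.65 at 10% FBS, a difference of 0.68 (SE 0.052). The cathepsin genes CTSH (-0.56), CTSD (-0.25) and CTSL (-0.25) fell.

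In the stress pathways the largest changes were those of single genes. In the ATF4 list 13 of 39 were called higher, or 8 without 10% FBS replicate 1, and 5 lower, or 3 without 0% FBS replicate 3 or 10% FBS replicate 2 (median 0.06). The rises were led by VLDLR and by GDF15, a stress-induced cytokine with 11.52, 11.19 and 11.46 without serum and 10.32, 10.20 and 10.15 with it, whereas asparagine synthetase ASNS (0.05) was not called and the amino acid transporter SLC7A5 fell by 0.65. In the unfolded protein response 7 of 23 were called higher, or 4 without 0% FBS replicate 3, and 3 lower, with HSPA5, the main chaperone of the endoplasmic reticulum, at -0.04. Heat shock genes had 4 of 17 higher and 0 lower (median 0.02). HSPB8, a small heat shock protein, led them and read 10.76, 10.59 and 10.70 in the 0% FBS arrays and 8.98, 9.02 and 8.93 in the 10% FBS arrays, a 3.26-fold difference (adjusted p = 4.5e-07).

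Among 27 measured p53 targets, 10 were called higher and 4 lower (median 0.05), with 2 lower on leaving out 0% FBS replicate 2 or 3 or 10% FBS replicate 1 or 2, and MDM2, the ubiquitin ligase of p53, was not called (0.17, adjusted p = 0.056, and 0.0184 with the replicate number as a block). In the list of the BCL2 family and apoptosis, 13 of 31 were called higher (41.9%) and 4 lower (median 0.06). BMF, a BH3-only protein that antagonises BCL2, read 10.18, 10.16 and 10.15 at 0% FBS and 8.96, 8.91 and 8.88 at 10% FBS, a 2.37-fold difference (adjusted p = 5.4e-07). BCL2L11, which encodes BIM, rose by 0.63 and PMAIP1, which encodes NOXA, by 0.57 on the log2 scale. BCL2 itself (0.06) and BCL2L1 (0.11) had no call, and CASP9 fell by 0.34.

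Inflammatory and interferon genes showed changes in both directions. The prostaglandin synthases fell: PTGS2, or COX-2, read 10.19, 10.06 and 10.31 without serum and 11.48, 11.58 and 11.57 with it, which was 39.1% of its level with serum, and PTGES read 8.90, 8.77 and 8.93 in the 0% FBS arrays and 9.97, 10.00 and 9.95 in the 10% FBS arrays. NFKBIZ (0.78), IL11 (0.71) and LIF (0.57) rose, the last being the ligand of the receptor that fell most. In all, 9 of 38 genes of the NF-kappaB, cytokine and chemokine list were called higher and 5 lower (median 0.04). Of 42 interferon response genes, 13 were called higher, among them PARP14 (0.64) and IFIT2 (0.52), whose call was lost by the methods' t-test (adjusted p = 0.097) and with all 12 arrays in 1 fit (0.053), and 4 lower, among them IFI16 (-0.44), with a median of 0.07, and 6 to 8 were higher without 0% FBS replicate 2 or 3 or 10% FBS replicate 2. Among hypoxia targets and glycolysis genes, 12 of 35 were called higher and 6 lower (median 0.05). NDRG1 read 11.27, 10.83 and 11.17 at 0% FBS and 8.73, 8.66 and 8.85 at 10% FBS, and HK2 rose by 0.86, ENO2 by 0.95 and P4HA1 by 0.70, while the glucose phosphate isomerase GPI (-0.08) had no call and EPAS1, which encodes HIF2alpha, fell by 0.63.

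Matrix and protease genes changed widely without a common direction. Of 59 measured collagen and matrix genes, 17 were called higher (28.8%) and 11 lower (18.6%), with a median of -0.04. SPP1 led the rises, followed by tenascin TNC (0.88), the hyaluronan synthase HAS2 (0.81), SPON1 (0.77) and COL6A3 (0.70), and LUM led the falls, followed by TGM2, SPOCK1 (-0.67), EMILIN2 (-0.59) and VCAN (-0.50). COL1A1 (-0.08) and COL4A1 (-0.09) were not called. Of 9 fibroblast markers, which include LUM, 2 were called lower and 1 higher. Their mean level lay between 7.17 and 7.21 at 0% FBS and between 7.48 and 7.59 at 10% FBS. Only 2 of the 9, DCN among them, had means below the lower quartile in both media. The part of other cells in these results was not tested. Of 37 proteases and inhibitors, 15 were called higher (40.5%) and 6 lower (16.2%), with a median of 0.08. The interstitial collagenase MMP1 read 9.03, 8.90 and 8.99 without serum and 7.68, 7.57 and 7.72 with it, a 2.5-fold difference, and MMP14 read 8.96, 8.85 and 8.90 in the 0% FBS arrays and 8.02, 8.03 and 8.18 in the 10% FBS arrays. MMP2 (-0.49) and the inhibitor TIMP3 (-0.27) fell.

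Of 47 measured subunits of the respiratory chain, 20 were called lower (42.6%), 0 higher and 27 were not called, with a median of -0.15, and 12 or 13 were lower without 0% FBS replicate 2 or 10% FBS replicate 2 or 3. NDUFS8, a subunit of complex I, read 10.33, 10.39 and 10.49 at 0% FBS and 10.94, 10.86 and 10.77 at 10% FBS, a difference of -0.45 (SE 0.059, adjusted p = 0.00087). NDUFS7 (-0.44), NDUFA2 (-0.37) and ATP5F1D (-0.34) fell as well, whereas NDUFA10 (-0.04) had no call. Metallothioneins, which bind zinc and copper, also stood lower, with MT1F at -0.60, MT1X at -0.58 and MT1E at -0.50, though cross-hybridisation within this family was not tested. With the zinc transporters, 7 of 27 members of that list were called lower (25.9%) and 4 higher (14.8%), with a median of -0.10. Iron genes had 3 of 25 higher, among them TFRC (0.36), and 3 lower.

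Glucocorticoid targets split. Of 14 measured, 7 were called higher and 4 lower (median 0.10). DUSP1 (0.99) and the glutamine synthetase GLUL (0.85) rose, while SGK1, a kinase that both glucocorticoids and serum are known to induce, read 8.95, 8.96 and 9.02 without serum and 9.88, 9.97 and 9.96 with it, or 51.5% of its level with serum, and the receptor gene NR3C1 fell by 0.47. Of 20 clock genes, 7 were called higher and 4 lower (median 0.02), led by NFIL3 (0.65) and BHLHE41 (-0.75), and BMAL1 read -0.12 without a call. In the list of epithelial and mesenchymal state, 3 of 25 were called higher and 5 lower (median -0.04). EPCAM read 9.33, 9.46 and 9.60 in the 0% FBS arrays and 8.20, 8.40 and 8.52 in the 10% FBS arrays, and KRT7 read 9.48, 9.54 and 9.50 at 0% FBS and 11.15, 11.12 and 11.17 at 10% FBS; the mesenchymal factors SNAI2 (-0.62), SNAI1 (-0.49) and ZEB2 (-0.48) fell, and vimentin VIM read -0.06 with no call. A second, dimmer feature of ZEB2 read -0.12 and was not called.

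**Figure D4:**
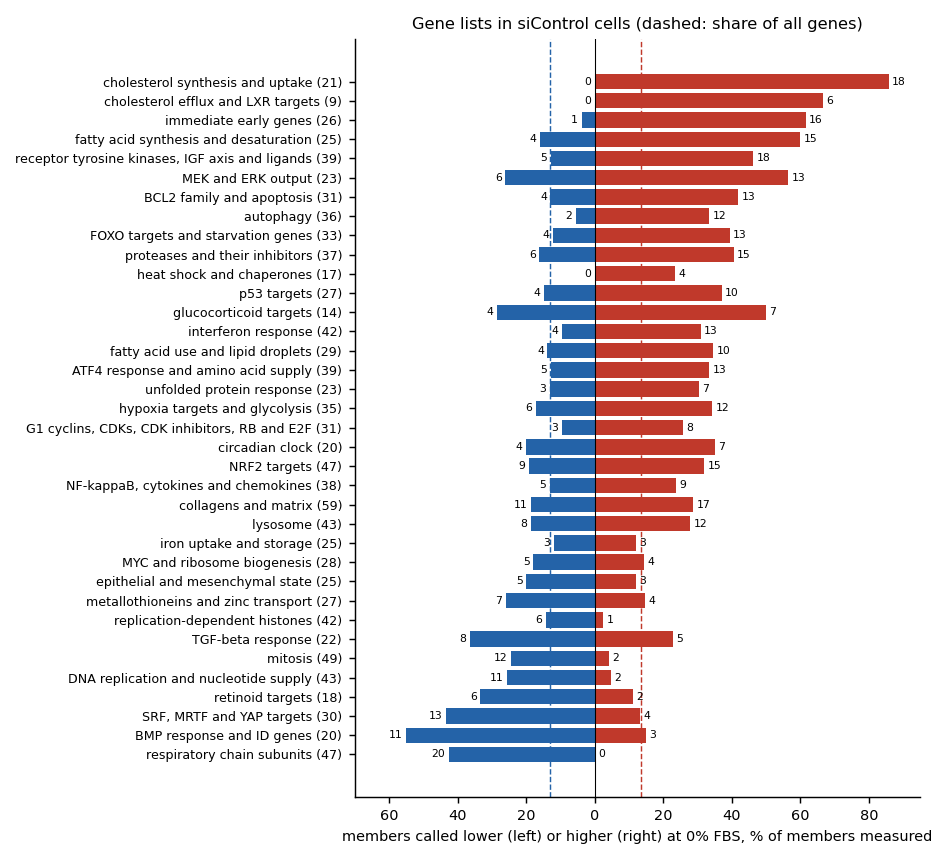
Share of the measured members of each gene list (number measured in brackets) called lower (blue, to the left) or higher (red, to the right) at 0% FBS in siControl cells, in percent, with the counts at the bar ends; dashed lines give the shares of all 18417 genes called lower (2386) and higher (2480). Cholesterol synthesis (18 of 21 higher) lies at one end, and BMP response (11 of 20 lower) and respiratory chain (20 of 47 lower) at the other.

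The same change of medium in the siLAPTM4B arrays gave values that share no array with those above. There 4027 features (20.7%) were called. Of the 5064 called in siControl cells, 94.8% had the same sign in siLAPTM4B cells, beside 70.5% of all features, and 3019 were called in both, which is 59.6% of the siControl calls and 75% of the siLAPTM4B calls. Of the 3019, 3011 ran the same way. Every one of the 178 siControl calls that exceeded 1 in log2 size was also called in the same direction in siLAPTM4B cells. Across the 19460 features the log2 fold changes had a Pearson correlation of 0.865 and a Spearman correlation of 0.658, given as a description over features that share arrays.

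Groups of genes repeated as well. Cholesterol synthesis had 18 of 21 members called higher in siLAPTM4B cells, where 9.82% of all genes were called higher, and 0 lower, with a median of 0.69. BMP response genes had 11 of 20 called lower, where 11.1% of all genes were called lower, with a median of -0.32, and ID1 changed by -1.61. Mitosis genes had 21 of 49 lower in siLAPTM4B cells, beside 12 in siControl cells, and the interferon list 3 of 42 higher, beside 13; these differences between counts were not tested. RARB changed by -2.46, INSIG1 by 1.32 and RGS4 by 2.88.

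The difference between the siRNAs was tested directly as an interaction over the 12 arrays, and 51 features (0.262%) passed an adjusted p of 0.05, with 2131 at an unadjusted p under 0.05. Leaving out 1 array at a time gave between 19 and 51 features. Of these 51, 48 had been called in siControl cells, where 26.0% of all features were called. The tested difference contains the siControl change itself, from the same arrays, so this overlap is in part built in. FOS rose more in siControl cells (1.70) than in siLAPTM4B cells (0.79), a difference of 0.90 (SE 0.13, adjusted p = 0.0096). SPP1 (3.08 and 2.29) and FGF7 (1.24 and 0.43) did likewise. HAS2 rose by 0.81 in siControl cells and read -0.05 in siLAPTM4B cells (adjusted p of the difference = 0.00026). PLAU fell further in siControl cells (-1.96) than in siLAPTM4B cells (-1.07), with an adjusted p of the difference of 6.1e-05, and so did LIFR (-2.91 and -1.98) and TNFSF10 (-1.94 and -1.01). IL7R, the interleukin-7 receptor, fell less in siControl cells (-1.10) than in siLAPTM4B cells (-1.98). For LIFR and TNFSF10 the siControl values without serum were dim.

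**Figure D5:**
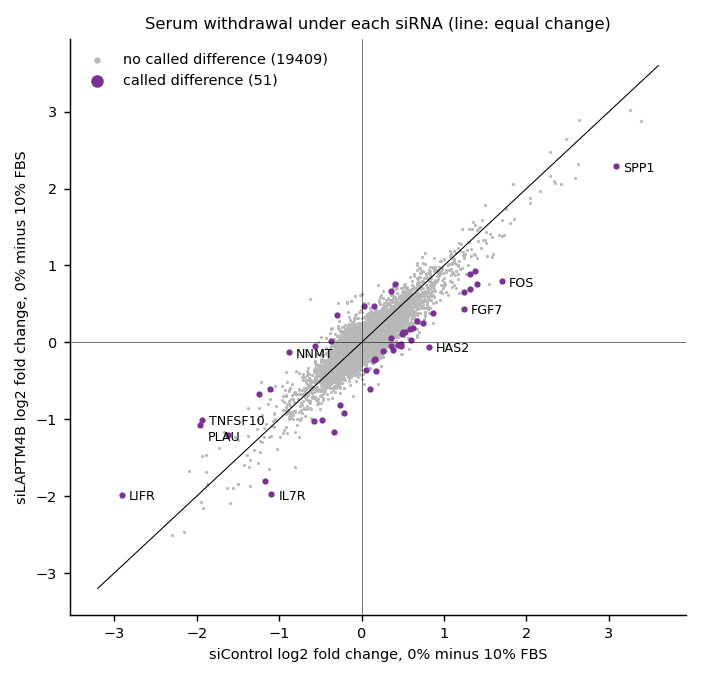
Log2 fold change of each feature, 0% FBS minus 10% FBS, in siControl cells (x axis) and in siLAPTM4B cells (y axis), with the line of equal change; 51 features with a called difference are purple. Most points follow the line, and FOS, SPP1 and FGF7 lie below it while TNFSF10, PLAU and LIFR lie above it.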

How the data were processed

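Total RNA of Calu-6 cells was hybridised to Affymetrix Human Gene 1.0 ST arrays in 4 groups of 3, siControl or siLAPTM4B with 10% or 0% FBS, grouped by the labels. The authors normalised the arrays by RMA, and the deposited table holds their log2 values, from 3.37 to 14.8, with quantile normalisation as part of that method, so a shift of all genes cannot be seen. The library file and its version are not given in the sources used here, and no detection p was used, so signals below the lower quartile of an array are called dim. Of 33252 features, 19460 carried 1 symbol, 1754 several and 12038 none, and 19429 gene IDs matched RefSeq.

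Differences, 0% minus 10% FBS, were fitted to the 6 siControl arrays with limma 3.58.1 (lmFit and eBayes) in R 4.3.3, without a block, with Benjamini-Hochberg adjustment across all 19460 single-symbol features. The siLAPTM4B arrays were fitted in the same way, and the interaction was fitted over the 12 arrays. The fits were tested on simulated data. For lists, each gene was represented by its brightest feature by mean over the 12 arrays (18417 genes, 769 with several features). Correlations of deviations from the group means between same-numbered arrays were 0.37, 0.13 and 0.20 in the siControl arrays. In the siLAPTM4B arrays they were 0.32, 0.13 and -0.17. Arrays of unlike number were not compared, and the labels do not state a shared culture or day. Whether the replicate numbers pair arrays is therefore not known, and the replicate block served as an alternative only.

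Genes were named by rule: the 15 largest called changes a direction without overlap, up to 6 members of a list called in each direction and 6 not called, the 5 largest differences in each direction between the siRNAs, and the marker genes, with LAPTM4B, NFE2L2 and HMOX1. SREBF2, SREBF1, SQLE, CYP51A1, SCD, PLK1, DUSP6, BAMBI and VIM were added after their values were seen, as were the promoter examples and the retinoid motif. The comparison, the lists and the rule were chosen with earlier results of these data known. Promoter sequences came from RefSeq (GRCh38.p14) and were matched by symbol, with the first listed start of each gene. Figures were drawn with matplotlib 3.10.9. Alternatives were the replicate block, all 12 arrays in 1 fit, leaving out each array, an intensity trend with a robust prior, features above the median level only, adjustment over all features, an unadjusted p under 0.01, the methods' Student test, median centring, quantile normalisation and the handling of several features of a gene.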

Additional observations from a re-analysis of the deposited data

Results flagged for a closer look

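The response to serum withdrawal differed between siControl and siLAPTM4B cells by the test of the difference itself in 51 features of the 19460, by limma's interaction term with Benjamini-Hochberg adjustment. The differences given here are the siControl log2 fold change minus the siLAPTM4B one, for the 5 largest in each direction and for SPP1. The cause of the differences was not tested.

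On the side where the siControl value was the lower one, TNFSF10 differed by -0.93, with -1.94 in siControl and -1.01 in siLAPTM4B cells. LIFR also differed by -0.93, with values of -2.91 and -1.98. Both were below the lower quartile of the siControl arrays at 0% FBS. PLAU differed by -0.89, with -1.96 and -1.07. NNMT, which methylates nicotinamide, differed by -0.75, with -0.88 in siControl cells and -0.13 in siLAPTM4B cells. SLC1A5, a glutamine transporter, differed by -0.66, and its log2 fold changes were of opposite sign, at -0.30 and 0.36. That rests on 1 of its 2 features: the brighter one read -0.10 in siControl and -0.06 in siLAPTM4B cells, without a call in either or for the difference.

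On the other side, FOS differed by 0.90, from rises of 1.70 and 0.79. IL7R differed by 0.88, with falls of -1.10 and -1.98. HAS2 differed by 0.87, with 0.81 in siControl cells and -0.05 in siLAPTM4B cells. SRPX2 differed by 0.83, with -0.33 and -1.16. FGF7 differed by 0.81, with 1.24 and 0.43. SPP1 differed by 0.79, with 3.08 and 2.29.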

How the results depend on the processing

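The 5064 siControl calls became 5608 with the replicate block, 3632 to 4478 on leaving out each array in turn, 3989 by the methods' Student test after adjustment and 5907 with an intensity trend, and the share called higher stayed between 47.7% and 53.7%. The block kept 4915 of the 5064. The 4027 siLAPTM4B calls ranged from 2713 to 4924. The 51 differences between the siRNAs were the least stable: the replicate block gave 84, an intensity trend with a robust prior 163, keeping features above the median level 107, adjustment over all features 17 and an unadjusted p under 0.01 gave 682. Leaving out 1 array gave from 19 (without siLAPTM4B 0% FBS replicate 1) to 51. Beyond that array, the count moved by more than 1.5 times without replicate 1 (29), 2 (26) or 3 (21) of siControl 0% FBS, 1 (27) or 2 (24) of siControl 10% FBS, 2 (22) of siLAPTM4B 0% FBS, and 2 (28) or 3 (28) of siLAPTM4B 10% FBS. The Student test was not run for the difference. Named genes were checked in the siControl fits alone, and NNMT, SRPX2 and SLC1A5 were not among them. Genes below the median level were absent from the alternative that kept features above it. Of the 189 checked genes with a call, 184 kept it in every alternative with an adjusted p that held them, and 0 reversed. The exceptions were ACSL5, BMPR1B, CDT1, IFIT2 and LAPTM4B. Of 29 without a call, BCL2L1, BMAL1, CCNB1, CCND1, GPI, MDM2, SCAP and VIM, 8 in all, gained one in some alternative. With the replicate block, the siControl calls that changed among named genes were those of CCNB1 and MDM2, and the histone list moved from 6 to 13 lower. List counts of 4 or fewer moved by at most 2 genes without any 1 array. Keeping features above the median level turned the median of the matrix list from -0.04 to 0.09 and that of the iron list from -0.03 to 0.08. The 3 arrays a group and the absence of a detection p limit what can be said of dim genes. The cause of these shifts was not tested.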
